A study of Mus musculus with 6 samples.

Results

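The 10 genes described here encode the adhesion molecules that leukocytes use to leave the blood and to hold on inside tissue. They are the integrin chains Itga4, Itgb1, Itgb7, Itgal, Itgam, Itgax and Itgb2, the P-selectin ligand Selplg, the hyaluronan receptor Cd44 and the integrin ligand Vcam1. They were chosen by name, and all 10 were found among the 32285 genes of the feature lists. Immune cells were sorted from tumours that a brain-metastatic breast cancer cell line formed after orthotopic injection in the brain (BrM, 3 libraries) or in the mammary fat pad (MFP, 3 libraries). All mice were female C57BL/6J animals of 10 to 12 weeks, and no other allele, agent or treatment is given in the labels for either group. Live nucleated CD45+ cells (negative for DAPI, positive for RedDot-1) were sorted and profiled with 10x Genomics 3′ version 3 chemistry, 16000 cells being loaded per library. CD11b, the product of Itgam, was stained, but the stated gate did not use it. The name of the line, the number of injected clones and whether a library pooled animals are not given in the sources used here, so a p-value here reflects only how far these libraries spread, which may be technical.

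Integrins are pairs of an alpha and a beta chain, and their binding partner depends on the pair. Alpha4 pairs with beta1 to form VLA-4, which binds VCAM-1 and fibronectin, or with beta7 to form alpha4beta7, which binds the gut addressin MAdCAM-1. AlphaL pairs with beta2 to form LFA-1, which binds ICAM molecules, while alphaM and alphaX pair with the same beta2 chain to form Mac-1 and alphaXbeta2, receptors for complement fragments and other ligands. PSGL-1, the Selplg product, lets leukocytes roll on selectins, and CD44 binds hyaluronan. In brain inflammation VLA-4 is known for capturing lymphocytes on vessels that display VCAM-1, and an antibody against alpha4 is used against multiple sclerosis.

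The deposited matrices held 49518 cell barcodes with 50692794 to 70944735 UMIs per library, a UMI being a tag that counts 1 captured RNA molecule. After filters on quality and doublets 43612 cells were kept, and marker gates that contained none of the 10 genes placed 30668 of them in 14 classes. In every class its own markers were among the leading genes, and no marker of another of the 14 classes was among the top 10. The gates select on many of these same genes, so this follows in part from the gating and does not test the class names. Epcam, an epithelial or tumour marker, was among the leading genes of cDC2-like cells, and Pf4, a platelet marker, among those of macrophage-like cells. The libraries differed in kind across the sites: the 3 with the lower UMI totals (BrM 1, MFP 1 and MFP 2) held 96.3 to 99.0% lymphoid cells among classed cells, and the 3 with the higher totals (BrM 2, BrM 3 and MFP 3) held 29.4 to 43.8%. Pairs of libraries shared 10 to 39 cell barcodes, at most 0.476% of the smaller list. The 10 genes gave 18382 (Vcam1) to 86468 (Selplg) UMIs in all. Levels are given as CPM, UMIs of a gene per 1000000 UMIs of the class in that library, for libraries with at least 20 cells of the class. Because 3′ libraries tag each molecule once, CPM was not divided by gene length. Genes can still differ in how well they are captured.

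Of the 3 alpha chains that pair with beta2, Itgam lies at chr7:128062640-128118491 and Itgax at chr7:128129547-128150657, neighbours on the plus strand (build GRCm38, mm10), and Itgal lies on the same strand of that chromosome at chr7:127296260-127335138. Itga4 is at chr2:79255426-79333123 on the plus strand and Cd44 at chr2:102811141-102901665 on the minus strand. All 10 are protein-coding genes. Itgam overlaps another annotated gene on its own strand, Gm49368, which has no row in the feature lists.

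Itga4, Itgam and Cd44 are the members that passed the test between the tumour sites further on. Their promoters, the 250 bases before the start from RefSeq (GRCm38.p6), are shown 5′ to 3′ on the strand of the gene. They were searched for GAGGAA on both strands, letters that form the core of the sites bound by PU.1, a transcription factor of myeloid cells. Capitals mark each match, GAGGAA or its reverse complement TTCCTC.
Itga4 promoter, chr2:79255176-79255425, plus strand: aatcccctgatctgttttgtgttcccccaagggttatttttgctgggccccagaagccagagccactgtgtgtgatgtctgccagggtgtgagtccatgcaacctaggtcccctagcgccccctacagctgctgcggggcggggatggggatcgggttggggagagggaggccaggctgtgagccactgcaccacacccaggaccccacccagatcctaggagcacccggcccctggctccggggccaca
Itgam promoter, chr7:128062390-128062639, plus strand: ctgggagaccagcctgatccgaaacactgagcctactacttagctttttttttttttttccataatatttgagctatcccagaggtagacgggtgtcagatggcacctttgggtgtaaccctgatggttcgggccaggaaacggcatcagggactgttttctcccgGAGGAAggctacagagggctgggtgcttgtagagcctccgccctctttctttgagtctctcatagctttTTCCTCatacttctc
Cd44 promoter, chr2:102901666-102901915, minus strand: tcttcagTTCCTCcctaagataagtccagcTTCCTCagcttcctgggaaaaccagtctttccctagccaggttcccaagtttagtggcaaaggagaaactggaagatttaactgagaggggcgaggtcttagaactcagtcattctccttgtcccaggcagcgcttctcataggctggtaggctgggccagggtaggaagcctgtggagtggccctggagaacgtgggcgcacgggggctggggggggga
The Itgam window held 2 matches, which began 84 and 15 bases before the start, and the Cd44 window held 2, which began 243 and 220 bases before it. The Itga4 window held no match. Of 32851 promoter windows of the same length 23.3% held the letters on either strand, and 3 of the 6 members whose promoter RefSeq gave held them. A match is a description of letters, not a bound site.

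Classes were compared with edgeR's quasi-likelihood test on UMIs summed per library and class, with library as a block. Each lymphoid class was set against the mean of the other 5 lymphoid classes and each myeloid or dendritic class against the mean of the other 7, with Benjamini-Hochberg adjustment over all genes tested. In NK-like cells 7 of the 10 members were called and all 7 were higher, where 41.2% of 10378 genes were called in either direction. In CD4 conventional T-like cells 5 were higher and 2 lower (29.3% of genes called), in Treg-like cells 4 and 4 (42.3%), in gamma-delta T-like cells 4 and 2 (21.6%) and in CD8 T-like cells 3 and 2 (38.4%). B-like cells stood out in the other direction, with 1 member higher and 6 lower (50.1%). Among the myeloid and dendritic classes, with 9538 genes tested, 6 members were higher and 2 lower in monocyte-like cells (27.4% of genes called), 6 and 1 in neutrophil-like cells (60.2%), 5 and 4 in macrophage-like cells (44.6%), and 3 and 5 in microglia-like cells (44.3%). The dendritic classes had 4 higher and 6 lower in mature DC-like cells (47.7%), 5 and 3 in plasmacytoid DC-like cells (43.3%), 2 and 3 in cDC2-like cells (22.1%) and 1 and 4 in cDC1-like cells (31.3%). Class contrasts of this size are common among all genes, so the values below, rather than these counts, describe the members. Fewer molecules per cell and fewer expressing cells within a class cannot be told apart in such sums.

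**Figure D1:**
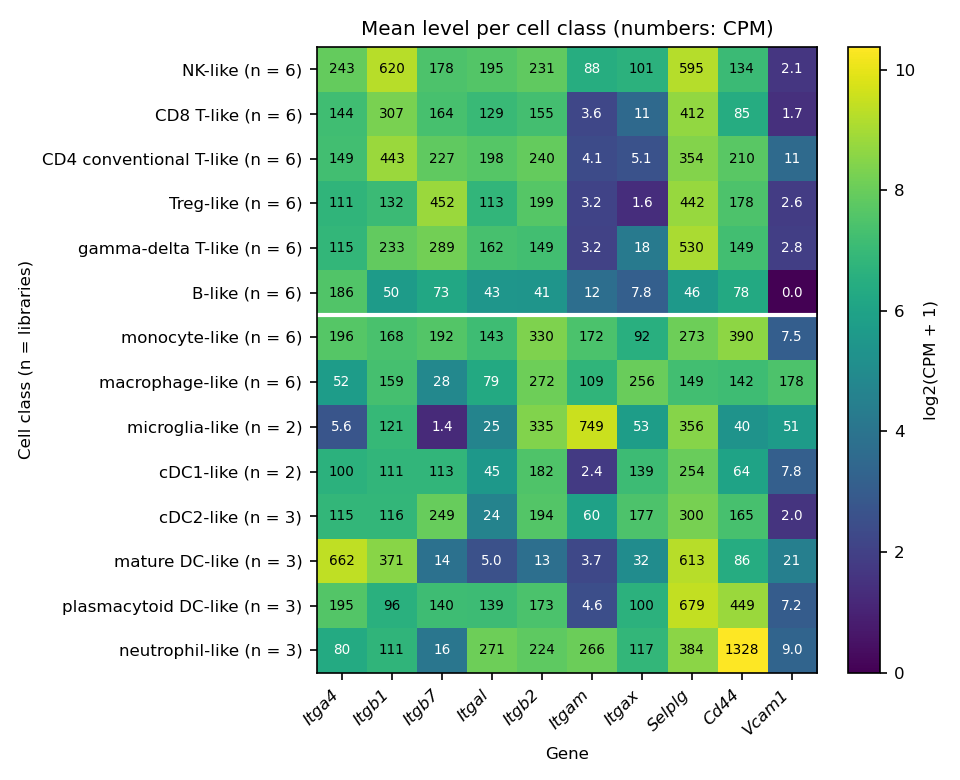
Mean CPM of the 10 genes (columns) in the 14 cell classes (rows, with the number of libraries), coloured on a log2(CPM + 1) scale with the mean CPM printed in each cell; the white line separates lymphoid from myeloid and dendritic classes. Cd44 in neutrophil-like cells (1328 CPM) and Itgam in microglia-like cells (749 CPM) stand out, and Itga4 is highest in mature DC-like cells (662 CPM) and lowest in microglia-like cells (5.60 CPM).

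Itga4, the alpha chain shared by VLA-4 and alpha4beta7, was highest in mature DC-like cells, the Ccr7 and Fscn1 positive dendritic cells. It had 607 CPM in BrM 2, 569 CPM in BrM 3 and 809 CPM in MFP 3, the 3 libraries that held the class. All 3 exceeded every library of every other class, whose highest value was 314 CPM. Against the other myeloid and dendritic classes Itga4 was 3.31 higher on the log2 scale (SE 0.14, adjusted p = 1.93e-17), and against monocyte-like cells, the next class down, 2.18 higher (adjusted p = 7.63e-10). Microglia-like cells, found only in BrM 2 and BrM 3 at 20 cells or more, were at the other end with 5.56 and 5.65 CPM (24 and 13 UMIs), 4.43 below the other classes on the log2 scale (SE 0.32, adjusted p = 2.02e-12). Tissue macrophage-like cells were next with 52.1 ± 18.5 CPM (SD, n = 6), and the step between them and microglia-like cells passed the test (adjusted p = 3.22e-08).

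Among lymphocytes Itga4 was highest in NK-like cells at 243 ± 72.7 CPM (SD, n = 6), followed by B-like cells at 186 ± 56.7 CPM, CD4 conventional T-like at 149 ± 57.1 CPM, CD8 T-like at 144 ± 36.3 CPM, gamma-delta T-like at 115 ± 36.9 CPM and Treg-like at 111 ± 49.1 CPM. Of the 5 neighbouring steps in this order only B-like over CD4 conventional T-like passed the threshold (adjusted p = 0.0414). Against the mean of the other lymphoid classes NK-like and B-like cells were higher by 0.82 (adjusted p = 2.08e-06) and 0.47 (adjusted p = 0.0209) on the log2 scale, while Treg-like and gamma-delta T-like cells were lower (log2 fold changes of -0.76 and -0.48, adjusted p = 0.000335 and 0.0176).

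The beta partners of alpha4 divided the classes differently. Itgb1, the beta1 chain, was highest in NK-like cells at 620.5 ± 111 CPM, then in CD4 conventional T-like cells at 443 ± 150.2 CPM (SD, n = 6 each), and the step between them passed the test (adjusted p = 0.00658). B-like cells had 50.4 ± 45.9 CPM of Itgb1, 3.11 below the other lymphoid classes on the log2 scale (SE 0.24, adjusted p = 3.94e-13), although their Itga4 was above them. Mature DC-like cells, at 371 ± 8.22 CPM (SD, n = 3), led the myeloid and dendritic classes in Itgb1 as they did in Itga4.

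Itgb7, the other partner, was highest in Treg-like cells, cells that restrain immune responses. They had 479.6 CPM in BrM 1, 291 in BrM 2 and 362 in BrM 3, against 545 CPM in MFP 1, 599 in MFP 2 and 434 in MFP 3. These were 1.25 above the other lymphoid classes on the log2 scale (SE 0.09, adjusted p = 3.25e-13), and gamma-delta T-like cells, second at 289 ± 53.1 CPM (SD, n = 6), were 0.66 above (adjusted p = 1.30e-06). Among the myeloid and dendritic classes cDC2-like cells led with 249 ± 71.7 CPM (SD, n = 3), 3.13 above the others (adjusted p = 1.19e-12). In microglia-like cells 10 and 1 UMIs of Itgb7 were counted, which are 2.31 CPM in BrM 2 and 0.435 CPM in BrM 3. How much of Itgb7 pairs with alpha4 was not measured in any class, so these levels cannot be read as alpha4beta7.

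Within the pool of Itgb7 and Itgb1 UMIs, Itgb7 made up 77.1 ± 3.20% in Treg-like cells and 55.4 ± 1.83% in gamma-delta T-like cells, against 22.3 ± 0.775% in NK-like cells (SD, n = 6 each). It made up 67.4 ± 8.57% in cDC2-like cells and 3.53 ± 0.989% in mature DC-like cells (SD, n = 3 each), so these dendritic classes lay near opposite ends of the scale. Treg-like libraries all lay above every NK-like library in this share. A high share was not confined to Treg-like cells among lymphocytes. B-like cells averaged 63.7 ± 23.0% (SD, n = 6), with 73.1, 46.2 and 25% in BrM 1, BrM 2 and BrM 3. In MFP 1, MFP 2 and MFP 3 they had 79.0, 80.6 and 78.6%, near the 71.1 to 80% of the Treg-like libraries.

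**Figure D2:**
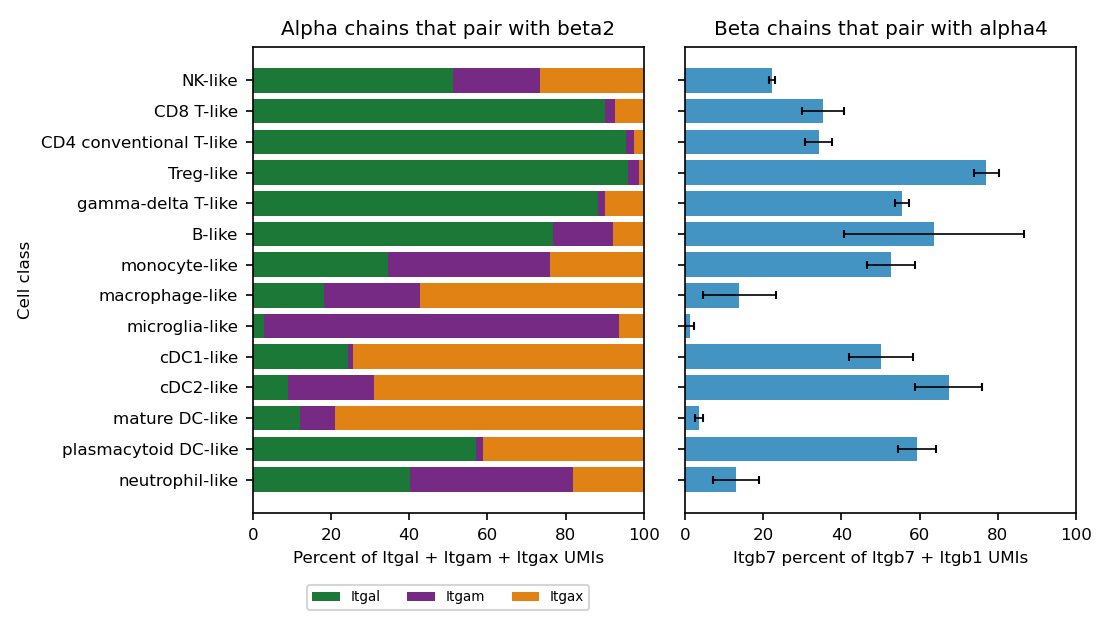
Left, mean share of Itgal, Itgam and Itgax among their summed UMIs in each cell class, as stacked bars in percent; right, share of Itgb7 among Itgb7 and Itgb1 UMIs, with bars for the SD over libraries. Itgal takes 96.0% of the alpha chains in Treg-like cells, Itgam 90.6% in microglia-like cells and Itgax 78.9% in mature DC-like cells. In mature DC-like cells the level of Itgax itself is low, at 31.7 CPM. The mean Itgb7 share is highest in Treg-like cells at 77.1%.

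Itgal, the alpha chain of LFA-1, was present in every class but differed by class. Neutrophil-like cells had 315 CPM in BrM 2, 344 CPM in BrM 3 and 153 CPM in MFP 3, 3.03 above the other myeloid and dendritic classes on the log2 scale (SE 0.17, adjusted p = 6.26e-15). The 2 BrM values were both above the MFP value, but with 1 MFP library no test between the sites was made. Of the lymphoid classes CD4 conventional T-like cells had 198 ± 26.9 CPM and NK-like cells 195 ± 23.0 CPM (SD, n = 6 each), and these neighbours did not differ beyond their spread (adjusted p = 0.852). B-like cells had the least Itgal among lymphocytes, 42.7 ± 33.4 CPM. Mature DC-like cells had 2.93, 7.46 and 4.47 CPM in BrM 2, BrM 3 and MFP 3, 3.75 below the other myeloid and dendritic classes on the log2 scale (adjusted p = 1.43e-09).

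Itgb2, the beta2 chain that LFA-1, Mac-1 and alphaXbeta2 share, was highest in microglia-like cells (320.1 and 349.8 CPM in BrM 2 and BrM 3) and in monocyte-like cells (329.9 ± 58.3 CPM, n = 6), neighbours that did not differ beyond their spread (adjusted p = 0.359). It was 12.8 ± 9.60 CPM in mature DC-like cells (SD, n = 3), 3.79 below the other myeloid and dendritic classes on the log2 scale (SE 0.24, adjusted p = 1.49e-13). B-like cells, at 41.1 ± 11.4 CPM (SD, n = 6), were 2.25 below the other lymphoid classes (adjusted p = 4.93e-17). The dendritic class that had the most Itga4 thus had the least of both LFA-1 chains.

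Itgam, which encodes CD11b, was highest in microglia-like cells, with 709 CPM in BrM 2 and 789 CPM in BrM 3, 5.09 above the other myeloid and dendritic classes on the log2 scale (SE 0.23, adjusted p = 3.44e-17). Neutrophil-like cells followed at 266 ± 37.6 CPM (SD, n = 3) and monocyte-like cells at 172 ± 66.6 CPM (SD, n = 6). The first step in this order passed the test (adjusted p = 0.000285), and so did the second (adjusted p = 0.000147). Among lymphocytes Itgam was largely a feature of NK-like cells, at 87.8 ± 31.5 CPM against 3.16 to 4.14 CPM in the T cell classes and 12.4 ± 16.4 CPM in B-like cells. NK-like cells were 4.59 above the other lymphoid classes on the log2 scale (SE 0.19, adjusted p = 1.86e-20).

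Itgax, which encodes CD11c, was highest in macrophage-like cells at 256 ± 95.3 CPM (SD, n = 6), followed by cDC2-like cells at 177 ± 8.51 CPM (SD, n = 3) and cDC1-like cells at 147 and 131 CPM in BrM 2 and BrM 3. Mature DC-like cells had 31.7 ± 1.71 CPM (SD, n = 3), 1.90 below the other myeloid and dendritic classes on the log2 scale (adjusted p = 1.87e-07). NK-like cells carried it too, at 101 ± 22.0 CPM (SD, n = 6), 4.25 above the other lymphoid classes (adjusted p = 2.78e-20).

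Taken as shares of the alpha chains that pair with beta2, Itgal made up 96.0 ± 1.51% of their UMIs in Treg-like cells, 95.5 ± 2.39% in CD4 conventional T-like cells and 51.2 ± 2.87% in NK-like cells (SD, n = 6 each). Every NK-like library lay below every library of both T cell classes. In microglia-like cells 90.6 ± 0.606% of these UMIs were Itgam (SD, n = 2) and in macrophage-like cells 57.2 ± 10.3% were Itgax (SD, n = 6).

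Selplg, which encodes PSGL-1, was highest in plasmacytoid DC-like cells, with 617 CPM in BrM 2, 596 CPM in BrM 3 and 823 CPM in MFP 3, in mature DC-like cells at 613 ± 31.3 CPM (SD, n = 3) and in NK-like cells at 595 ± 101 CPM (SD, n = 6). The step from plasmacytoid to mature DC-like cells did not pass the test (adjusted p = 0.312). B-like cells had 46.1 ± 27.8 CPM (SD, n = 6), 3.56 below the other lymphoid classes on the log2 scale (SE 0.14, adjusted p = 5.66e-21). Every B-like library, at 23.2 to 100.4 CPM, lay below every library of the other lymphoid classes, the lowest of which had 237 CPM.

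Cd44 was highest in neutrophil-like cells, with 1370.2 CPM in BrM 2, 1233 CPM in BrM 3 and 1379.8 CPM in MFP 3, 3.70 above the other myeloid and dendritic classes on the log2 scale (SE 0.17, adjusted p = 3.73e-17). Microglia-like cells were lowest with 39.1 and 40.4 CPM. Among lymphocytes CD4 conventional T-like cells led with 209.7 ± 51.2 CPM (SD, n = 6) and were 0.86 above the other lymphoid classes (adjusted p = 2.79e-05).

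Vcam1, the ligand of VLA-4, was highest in macrophage-like cells, with 60.2, 220.3 and 252 CPM in BrM 1, BrM 2 and BrM 3 and 140.1, 75.6 and 322 CPM in MFP 1, MFP 2 and MFP 3. It was 4.43 above the other myeloid and dendritic classes on the log2 scale (SE 0.14, adjusted p = 1.32e-19). Microglia-like cells came next with 40.3 and 60.8 CPM. In B-like cells no Vcam1 UMI was counted in any of the 6 libraries, and in the deepest of them, BrM 1, a count of 0 allows up to 2.56 CPM (3 UMIs; limits cover counting error only).

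CD4 conventional T-like cells had 2.39, 15.5 and 16.4 CPM of Vcam1 in BrM 1, BrM 2 and BrM 3 and 8.51, 6.01 and 17.2 CPM in MFP 1, MFP 2 and MFP 3, against 2.78 ± 2.66 CPM in gamma-delta T-like cells (SD, n = 6), the next class (log2 difference 2.32, SE 0.44, adjusted p = 0.000146). The other T and NK classes had at most 6.23 CPM in any library. Macrophage marker RNA moved with these low levels: the summed level of 8 macrophage markers in CD4 conventional T-like cells was 14.1 to 22.4 CPM in the 3 libraries of lower UMI total and 343 to 491 CPM in the other 3, and in NK-like cells 7.78 to 16.4 CPM and 384 to 568 CPM. Vcam1 in NK-like cells was 0.191 to 0.257 CPM in the first 3 libraries and 2.42 to 5.79 CPM in the other 3. The part of macrophage RNA in these values was not tested.

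Shares of cells with at least 1 UMI were compared after each cell was thinned to 2000 UMIs. Itga4 was found in 65.7 ± 7.42% of mature DC-like cells (SD, n = 3; 92.3% without thinning) and in 37.0 ± 7.68% of NK-like cells (SD, n = 6; 59.1% without thinning). In microglia-like cells, the class with the least Itga4, the share was 1.08 ± 0.108% (5.42% without thinning), although these cells were deeper before thinning, with medians of 11524.5 UMIs in BrM 2 and 10523 in BrM 3 against 7970 and 5958.5 in mature DC-like cells of the same libraries. Both chains of VLA-4 were found in 33.4 ± 0.166% of mature DC-like and 26.4 ± 5.91% of NK-like cells, and in 0.906 ± 1.00% of B-like cells. Both chains of LFA-1 were found in 13.7 ± 3.33% of monocyte-like, 13.2 ± 2.55% of NK-like and 13.1 ± 2.30% of CD4 conventional T-like cells. Itgal and Itgb2 together were found in no mature DC-like cell at that depth. Both chains of alpha4beta7 were found in 11.1 ± 2.98% of cDC2-like and 10.9 ± 4.44% of Treg-like cells, and both chains of Mac-1 in 34.1 ± 2.63% of microglia-like cells.

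The balance of VLA-4 and LFA-1 transcripts was measured as the log2 ratio of Itga4 and Itgb1 UMIs over Itgal and Itgb2 UMIs per library and class. Capture can differ between genes, so a ratio is read only against the same ratio in another class or group. The sums count chains and not complexes, since Itgb2 also serves Mac-1 and alphaXbeta2 and Itga4 also serves alpha4beta7. How much of Itgb1 pairs with alpha4 was not measured, so its UMIs cannot be taken as VLA-4 alone. The more abundant chain weighs more: in NK-like cells Itgb1 had 620.5 CPM against 243 CPM of Itga4. Mature DC-like cells were far from all other classes, at 6.05 ± 1.07 (SD, n = 3). They had 996 UMIs of Itga4 and Itgb1 against 14 of Itgal and Itgb2 in BrM 2, 1006 against 33 in BrM 3 and 266 against 2 in MFP 3. The lowest of these ratios was 30.5 (exact 95% interval 21.6 to 44.5), whereas the highest in any library of another class was 4.71. That of MFP 3 rests on 2 UMIs below the line (133, interval 36.5 to 1104).

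Among lymphocytes the ratio stood at 1.58 ± 0.52 in B-like, 1.00 ± 0.23 in NK-like, 0.64 ± 0.32 in CD8 T-like, 0.38 ± 0.43 in CD4 conventional T-like, 0.15 ± 0.21 in gamma-delta T-like and -0.39 ± 0.26 in Treg-like cells (log2 scale, SD, n = 6 each). The B-like ratio rests on few UMIs of Itgal and Itgb2 in the smaller libraries, with 35 cells and 89628 UMIs of all genes in BrM 2. B-like cells numbered 42 in BrM 3 and 40 in MFP 3. The 8 macrophage markers summed to 627 to 1165 CPM in BrM and 417 to 963 CPM in MFP B-like cells. Their part in the ratio was not tested. Each of the 15 class pairs was compared within libraries with a two-sided exact sign-flip test. In 13 pairs all 6 libraries agreed in direction (adjusted p = 0.0361 each, the smallest that 6 libraries and 15 pairs allow with this result). Treg-like cells were below NK-like cells by 1.39 ± 0.34 and below CD8 T-like cells by 1.03 ± 0.40 (log2 scale, SD of the 6 differences). CD4 conventional T-like cells were not separated from Treg-like cells (5 of 6 libraries, adjusted p = 0.067) or from gamma-delta T-like cells (4 of 6, adjusted p = 0.219).

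The places of B-like cells at the top and of Treg-like cells at the bottom depended on the chain. With Itga4 over Itgal alone they stood at 2.36 ± 1.10, the highest of the 6 lymphoid classes, and with Itgb1 over Itgb2 alone at -0.09 ± 0.93, below every lymphoid class except Treg-like (SD, n = 6). Treg-like cells stood at -0.13 ± 0.42 with Itga4 over Itgal, above CD4 conventional T-like cells at -0.49 ± 0.46 and gamma-delta T-like cells at -0.55 ± 0.67, and at -0.60 ± 0.30 with Itgb1 over Itgb2, the lowest of the 6 (SD, n = 6 each). With either single chain 0 of the 15 class pairs passed the threshold. All 6 libraries had the same direction in 9 pairs with the alpha chains and in 8 with the beta chains (lowest adjusted p = 0.0521 and 0.0586, exact sign-flip test), where at least 10 such pairs are needed for an adjusted p under 0.05. Both chains of VLA-4 were rarely found in the same B-like cell, as given above.

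**Figure D3:**
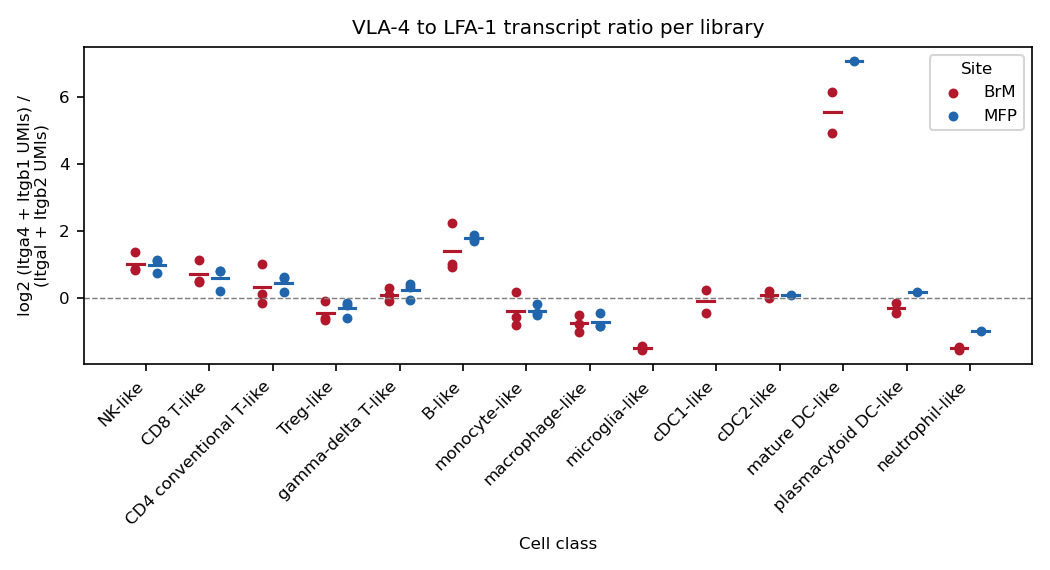
The log2 ratio of summed Itga4 and Itgb1 UMIs to summed Itgal and Itgb2 UMIs in each library (points) and its mean per site (lines), BrM in red and MFP in blue, for the 14 cell classes. Mature DC-like cells average 6.05, the other classes lie between -1.50 and 1.58, and the sites overlap in each of the 8 classes compared between them.

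BrM and MFP were compared in the 8 classes with at least 2 libraries per site, each fitted alone with edgeR's quasi-likelihood test. Of 80 pairs of class and member 72 passed the filter on low counts, and 3 were called, each lower in BrM: Itga4 in Treg-like cells, and Itgam and Cd44 in monocyte-like cells. For Treg-like cells 1 of 7 members tested was called where 10.2% of 6595 genes were, a share near the background, and in monocyte-like cells 2 of 10 were called where 3.12% of 8199 genes were. Of the 72 tested pairs 49 had a lower level in BrM, and 19 had no overlap between the libraries of the sites, 17 of them lower and 2 higher in BrM. By class these were 4 of 7 members tested in Treg-like cells, where 35.6% of genes did not overlap, 4 of 10 in CD4 conventional T-like cells (24.9% of genes), 4 of 10 in monocyte-like cells (21.6%), 3 of 8 in gamma-delta T-like cells (19.2%), 3 of 10 in NK-like cells (17%) and 1 of 7 in B-like cells (14%). The sites overlapped for every member in CD8 T-like cells (12.7% of genes did not) and in macrophage-like cells (10.1%). Non-overlapping genes in general also leaned lower in BrM in Treg-like (20.7% lower, 14.9% higher) and CD4 conventional T-like cells (17.3%, 7.65%). So they did in monocyte-like (13.8%, 7.85%), NK-like (10.1%, 6.9%) and CD8 T-like cells (9.31%, 3.43%). They did not in gamma-delta T-like (8.48%, 10.7%), B-like (6.64%, 7.4%) or macrophage-like cells (4.4%, 5.72%). The median log2 fold change over all genes lay between -0.01 and 0.02 in each class.

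**Figure D4:**
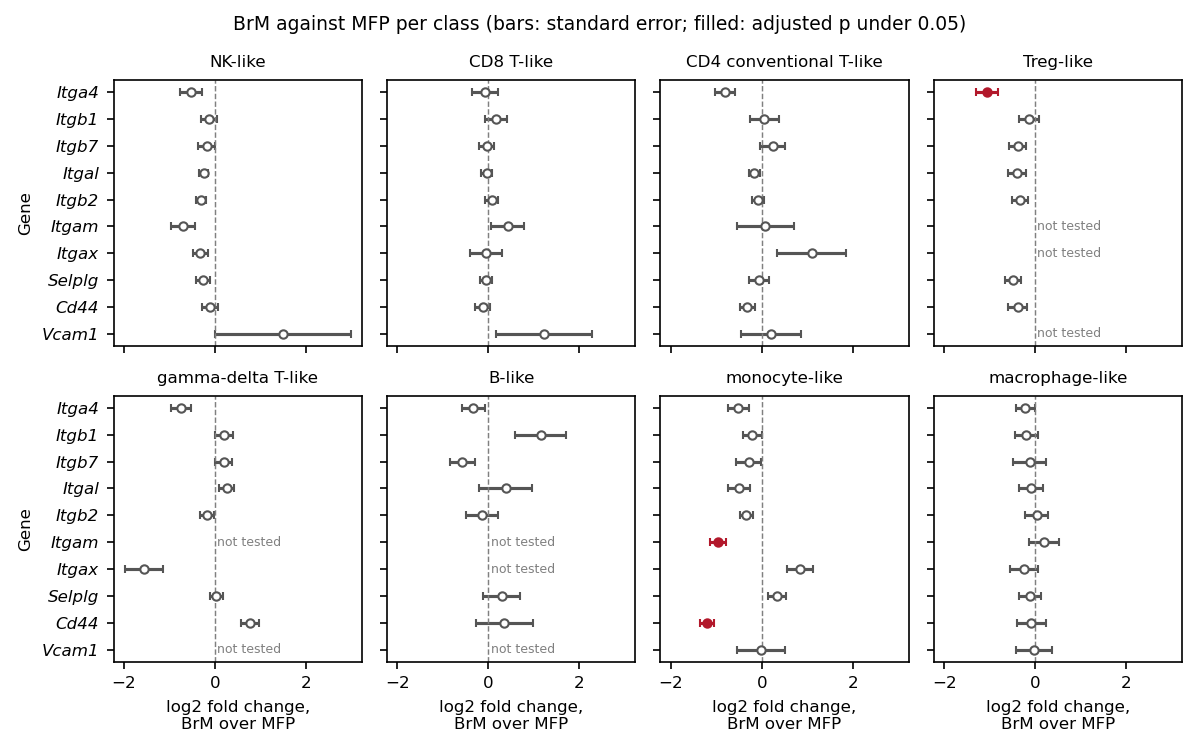
Log2 fold change of BrM over MFP (points) with its standard error (bars) for the 10 genes in each of the 8 classes; filled red points have an adjusted p under 0.05. Only Itga4 in Treg-like cells (-1.06) and Itgam and Cd44 in monocyte-like cells (-0.97 and -1.20) are filled, and all 3 lie left of 0.

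Itga4 in Treg-like cells was 56.0 CPM in BrM 1, 67.7 CPM in BrM 2 and 89.5 CPM in BrM 3, against 176 CPM in MFP 1, 161 CPM in MFP 2 and 114 CPM in MFP 3. The sites did not overlap. The means were 71.1 ± 17 CPM in BrM against 150.2 ± 32.3 CPM in MFP (SD, n = 3 each), a log2 fold change of -1.06 (SE 0.24, adjusted p = 0.0168). The counts behind them were small, 115, 59 and 48 UMIs in BrM and 149, 100 and 41 in MFP. Within the libraries of lower UMI total the log2 fold change was -1.57 (adjusted p = 3.27e-05) and within those of higher total -0.34 (adjusted p = 0.493), and the call was also lost without BrM 2 (adjusted p = 0.0768) or MFP 2 (adjusted p = 0.0959) and with the replicate number as a block (log2 fold change -1.05, adjusted p = 0.0557).

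The share of Treg-like cells with an Itga4 UMI after thinning was 10.4, 15.6 and 17.5% in BrM and 27.5, 26.1 and 14.1% in MFP, and here the sites overlapped. T cell marker RNA moved with the site in this class: the summed level of 5 markers was 3292 to 4469 CPM in BrM and 4439 to 5027 CPM in MFP, overlapping only in BrM 1 and MFP 3. The 8 macrophage markers did not move with the site, at 19.0, 336 and 371 CPM in BrM and 8.27, 9.64 and 384 CPM in MFP. The part of either in the Itga4 result was not tested. Itgb1, the partner of alpha4 in VLA-4, had 123 ± 30.1 CPM in BrM against 141 ± 28.5 CPM in MFP in the same cells (adjusted p = 0.721), and Itgb7 had 378 ± 95.1 and 526 ± 84.3 CPM (adjusted p = 0.202).

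In monocyte-like cells Cd44 was 225, 226 and 236 CPM in BrM 1, BrM 2 and BrM 3, against 466, 591 and 599 CPM in MFP 1, MFP 2 and MFP 3. Every BrM library lay below every MFP library. The means were 229 ± 6.11 CPM in BrM against 552 ± 74.9 CPM in MFP (SD, n = 3 each), a log2 fold change of -1.20 (SE 0.15, adjusted p = 0.00263). The call held under each of 14 alternative settings, with log2 fold changes from -1.30 to -0.86.

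Itgam in the same cells was 143, 100 and 98.7 CPM in BrM and 208, 236 and 246 CPM in MFP, again without overlap. Its means were 114 ± 25.2 CPM in BrM against 229.7 ± 19.8 CPM in MFP (SD, n = 3 each), a log2 fold change of -0.97 (SE 0.18, adjusted p = 0.0146). This call was lost with a stricter gate (log2 fold change -0.63, adjusted p = 0.0636), within the libraries of lower UMI total (-0.56, adjusted p = 0.696) and without BrM 2, BrM 3 or MFP 3 (adjusted p = 0.106, 0.0842 and 0.0974). Itgax, the neighbouring gene on the chromosome, did not share the direction: it had 122 ± 26.5 CPM in BrM against 62.9 ± 39.4 CPM in MFP without overlap, a log2 fold change of 0.85 that did not pass the adjustment (adjusted p = 0.145).

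Macrophage marker RNA moved with both monocyte results, at 1300.2, 1769 and 1848 CPM in BrM and 2163, 2408 and 2966 CPM in MFP for the sum of 8 genes. So did a list of 4 epithelial or tumour markers, at 16.9, 218 and 81.8 CPM in BrM and 4.03, 13.3 and 11.7 CPM in MFP. Most of this sum in BrM 2 and BrM 3 was Epcam (200.8 and 71.8 CPM), which was also a leading gene of cDC2-like cells. Epcam was at 7.99 CPM in BrM 1 and at 0 to 6.64 CPM in MFP. Krt8 did not overlap between the sites either, but Krt18 overlapped and Krt19 was at 0 UMIs in every library. Of the 8 lists of other cell types, those of endothelial and glial cells did not overlap either, with 4 genes each: the endothelial sum was 44.6 to 55.7 CPM in BrM and 4.44 to 38.3 CPM in MFP, and the glial sum 27.4 to 31.1 CPM in BrM and 33.8 to 46.4 CPM in MFP. Most of the glial sum was Mbp (27.2 to 29.3 CPM in BrM and 33.8 to 42.3 CPM in MFP), while Gfap and Aqp4 were at 0 UMIs in every MFP library and at 0 to 2 in BrM. The part of these 4 lists in the Cd44 and Itgam results was not tested. Monocyte-like cells were few in the lymphoid-rich libraries, 107 in BrM 1, 55 in MFP 1 and 27 in MFP 2, against 310, 534 and 319 in BrM 2, BrM 3 and MFP 3. Cd44 was found in 33.9 ± 2.06% of BrM and 58.6 ± 9.19% of MFP monocyte-like cells after thinning to 2000 UMIs, and Itgam in 20.2 ± 4.07% and 37.5 ± 8.58% (SD, n = 3 each). Neither share overlapped between the sites (two-sided exact permutation p = 0.1 each, the smallest that 3 against 3 libraries allow).

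**Figure D5:**
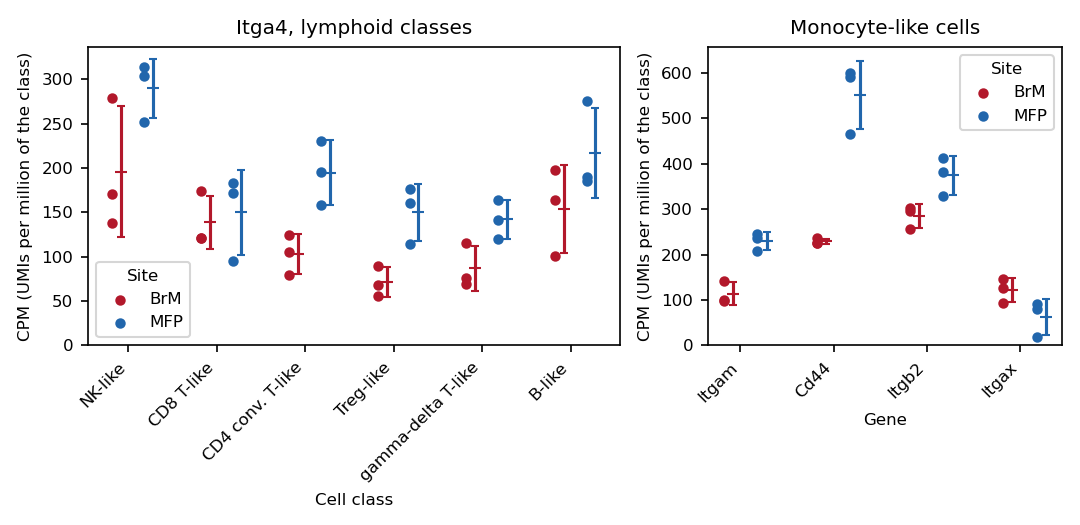
CPM per library (points) with the mean and SD (bars) in BrM (red) and MFP (blue) for Itga4 in the 6 lymphoid classes, left, and for 4 genes in monocyte-like cells, right. Treg-like Itga4 averages 71.1 CPM in BrM against 150.2 CPM in MFP, and monocyte Cd44 averages 229 CPM in BrM against 552 CPM in MFP.

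In the other 6 classes edgeR called no member between the sites. Itga4 had 124, 105 and 79.9 CPM in BrM against 231, 195 and 158 CPM in MFP in CD4 conventional T-like cells, without overlap. Its log2 fold change of -0.81 did not pass the adjustment with edgeR (adjusted p = 0.156), whereas DESeq2 called it (adjusted p = 0.0196). The glial list did not overlap in these cells either, at 77.7 to 87.4 CPM in BrM and 94.2 to 104 CPM in MFP, nearly all of it Mbp, and its part in the Itga4 values was not tested. Of all 9882 genes in this class edgeR called 0%; 1776 had p under 0.05 before adjustment, and 179 were called by DESeq2. In gamma-delta T-like cells, where 0.0118% of 8488 genes were called, Itga4 had 87.0 ± 25.3 CPM in BrM against 142 ± 22.0 CPM in MFP (log2 fold change -0.75, adjusted p = 0.213). Itgax had 9.79 ± 5.13 and 25.7 ± 8.34 CPM there (-1.56, adjusted p = 0.183), and Cd44 had 189 ± 52.5 CPM in BrM against 109.7 ± 16.2 CPM in MFP (0.77, adjusted p = 0.183). These 3 members were each called once a term for the kind of library was added, with no share of all genes called given for that fit. They did not overlap between the sites. Nor did the platelet or erythroid list there, at 0.867 to 1.11 CPM in BrM and 0 to 0.419 CPM in MFP, which rests on 0 to 3 UMIs per gene and library. DESeq2 called none of the members in gamma-delta T-like cells and 64 of all genes.

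In NK-like cells Itgal, Itgb2 and Itgam did not overlap between the sites. Itgal had 175 ± 7.58 CPM in BrM against 215 ± 9.49 CPM in MFP, and Itgb2 had 204 ± 21.5 and 259 ± 12.6 CPM. Itgam had 65.0 ± 26.5 CPM in BrM against 110.5 ± 14.9 CPM in MFP. Each had a p under 0.05 before adjustment and 0.581 after it. The endothelial and glial lists also did not overlap in NK-like cells: the endothelial sum was 61.4 to 66.2 CPM in BrM and 67.4 to 79.2 CPM in MFP, most of it Pecam1, and the glial sum 22.2 to 39.0 CPM in BrM and 39.2 to 39.9 CPM in MFP, most of it Mbp. Aqp4 was at 0 in all 6 libraries and Cdh5 in 5 of them. The part of these lists in the 3 results was not tested. Of 10558 genes in NK-like cells edgeR called 0%, although 894 were under 0.05 before adjustment; DESeq2 called 30 genes and none of the members. In CD8 T-like cells the members other than the sparsely counted Itgam and Vcam1 had log2 fold changes between -0.12 and 0.17, and the sites overlapped for each of the 10. Of the members 0 were under 0.05 before adjustment there and DESeq2 called 0. EdgeR called 0% of 10743 genes in CD8 T-like cells; 634 were under 0.05 before adjustment, and 6 were called by DESeq2. In B-like cells edgeR called 0% of 4201 genes; 209 were under 0.05 before adjustment, and 1 was called by DESeq2. Of the members there 0 were under 0.05 before adjustment, and DESeq2 called 0. In macrophage-like cells 3.05% of 10823 genes were called by edgeR and 5 genes by DESeq2, while 0 members were called by either and 0 had an unadjusted p under 0.05. Vcam1 in macrophage-like cells had 178 ± 103 CPM in BrM against 179 ± 128 CPM in MFP, with a spread within each site far larger than the difference. In the values per library given above, BrM lay below MFP within each kind of library. Kind is not balanced between the sites, so near-equal means do not show equal levels within a kind. The libraries of lower UMI total held 45 (BrM 1), 53 (MFP 1) and 21 (MFP 2) macrophage-like cells, the other libraries 1597 to 1916.

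Whether the BrM to MFP difference itself differed between the 6 lymphoid classes was tested as an interaction in 1 fit, where 2.94% of 10644 genes passed. Of the 10 members 0 passed with edgeR's quasi-likelihood test, and 5 had an unadjusted p under 0.05. The lowest adjusted p was 0.105, for Itgb7, and that of Itga4 was 0.228. The lower Itga4 of Treg-like cells was therefore not shown to be particular to that class. On simulated counts of 9925 genes this interaction test recovered 20% of genes changed 2-fold in Treg-like cells and 64% of those changed 4-fold.

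Shares of cells with a UMI, thinned to 2000 UMIs, did not overlap between the sites in 15 of 80 pairs of class and member. All 15 were among the 72 pairs that passed the count filter, 20.8% of them, where 16.1% of the genes tested in these classes did not overlap in thinned shares. The share of the members is near that background. Besides the monocyte shares given above these included Itga4 in NK-like cells, at 31.8 ± 7.92% in BrM against 42.3 ± 1.66% in MFP, and Itga4 in gamma-delta T-like cells, at 12.3 ± 3.43% against 22.9 ± 0.584% (SD, n = 3 each; two-sided exact permutation p = 0.1 each, the smallest possible). In NK-like cells the CPM of Itga4 overlapped between the sites.

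The VLA-4 to LFA-1 ratio did not separate the sites in any of the 8 classes. The difference of the mean log2 ratio, BrM minus MFP, lay between -0.39 in B-like and 0.11 in CD8 T-like cells, and the two-sided exact permutation p between 0.4 and 1. With the alpha chains alone, Itga4 over Itgal, the libraries of the sites did not overlap in Treg-like cells, where the log2 ratio was -0.43 ± 0.28 in BrM and 0.18 ± 0.30 in MFP, or in gamma-delta T-like cells, where it was -1.05 ± 0.59 and -0.05 ± 0.16 (SD, n = 3 each). The exact p was 0.1 in both, the smallest possible, and 0.4 after adjustment over the 8 classes.

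Companion genes were taken from lists of other integrin subunits, integrin adaptors, ligands, PSGL-1 glycosylation and CD44 partners, and the genes named are those with the largest changes among those past the threshold. In Treg-like cells 6 of 19 other integrin subunits passed the count filter, 3 of them were lower in BrM and none was higher, with a median log2 fold change of -0.68 against -0.01 over all genes. They were Itgb8, which with Itgav activates latent TGF-beta, at 46.4 ± 11.3 CPM in BrM against 125 ± 44.6 CPM in MFP (log2 fold change -1.23, adjusted p = 0.0139). Itgae, the CD103 chain that binds E-cadherin, had 193 ± 5.82 CPM in BrM against 369.8 ± 78.7 CPM in MFP (-0.82, adjusted p = 0.0153). Itgav had 182 ± 27.1 CPM in BrM against 343 ± 74.7 CPM in MFP (-0.79, adjusted p = 0.0228). Over all the lists 3 of 48 companion genes tested in Treg-like cells were called, where 10.2% of 6595 genes were, so the companion genes were not called more often than genes in general.

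In monocyte-like cells 1 of 23 integrin adaptors passed the test, Fyb (ADAP, an adaptor of integrin activation), with 197 ± 21.1 CPM in BrM against 444 ± 91.8 CPM in MFP. The median of the 23 was -0.33, against 0.00 for all genes. Among ligands 1 of 10 was lower, Fn1 (fibronectin), at 160.3 ± 7.42 CPM in BrM against 366 ± 114 CPM in MFP, and 1 was higher, F11r (JAM-A, a junction molecule that LFA-1 binds), at 76.3 ± 12.3 and 29.0 ± 18.1 CPM. Of the hyaluronan and CD44 partners 1 of 10 was lower, Vcan (versican), at 51.3 ± 20.9 CPM in BrM against 121 ± 38.9 CPM in MFP. Over all the lists 4 of 57 companion genes tested were called, where 3.12% of genes were. Fn1 and Vcan are also markers of monocytes, and Vcan was one of the genes of the gate, so its value is a description.

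In macrophage-like cells 2 of 12 ligands were higher in BrM. Spp1 (osteopontin, bound by alpha4 and alphaV integrins) had 524 ± 199 CPM in BrM against 119 ± 101 CPM in MFP (log2 fold change 2.12, adjusted p = 0.0226), and Thbs1 (thrombospondin 1) had 308 ± 180.3 and 67.5 ± 44.8 CPM (2.01, adjusted p = 0.00407). Cd151, a tetraspanin partner of beta1 integrins, was lower at 9.17 ± 0.505 CPM in BrM against 20.1 ± 7.21 CPM in MFP, 1 of 12 in its list. Over all the lists 3 of 67 were called there, where 3.05% of genes were. Macrophage-like cells numbered 45 in BrM 1, 53 in MFP 1 and 21 in MFP 2, against 1740, 1597 and 1916 in BrM 2, BrM 3 and MFP 3. The companion genes were not followed under the alternative settings. In the other 5 classes edgeR called 0 of the 36 to 64 companion genes tested per class, and 1 to 8 per class had a p under 0.05 before adjustment; DESeq2 was not applied to these lists.

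Genes with the pattern most like a member were sought by Pearson correlation of log2(CPM + 1) over the 14 class means among 5529 genes. For Itga4 they were Nr1h2 (r = 0.908), Cytip (0.905) and Gpr132 (0.900), and for Itgal Notch1 (0.915), Zfp36l2 (0.893) and Gm20559 (0.891). For Itgb7 they were Ifi203 (0.925), Anxa6 (0.902) and Mppe1 (0.899), and for Vcam1 Gna12 (0.830), Dpm2 (0.822) and Tmem119 (0.818). Class means share libraries, and these values describe likeness over 14 points only.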

How the data were processed

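The values deposited by the authors are raw UMI counts, a row per gene and a column per barcode, made with Cell Ranger 4.0 on the mm10 build, per the submitters' processing notes; the annotation release is not given in the sources used here. Whether animals were pooled is not given either. Barcodes with fewer than 500 UMIs, fewer than 200 genes or over 10% mitochondrial UMIs were dropped (2627). Doublet scores came from Scrublet (scanpy 1.11.5). Because the automatic cutoff found under 0.5% in BrM 3 and MFP 1, the top 7% by score were taken out of each library instead (3279 cells). Marker gates per cell gave 14 classes. Of the kept cells 10306 with a Cd3 UMI could not be placed in a class, and 118 epithelial-like and 2520 other cells were left out. The gates for microglia-like and cDC2-like cells were revised after marker levels were seen. UMI counts were summed per library and class with at least 20 cells and tested with edgeR 4.0.16 (quasi-likelihood, TMM scaling, filterByExpr, limma 3.58.1) in R 4.3.3, with Benjamini-Hochberg adjustment over all genes tested and a threshold of 0.05. DESeq2 1.42.0 was an alternative. On simulated counts the comparison of the sites recovered between 25% (B-like, 3948 genes) and 86% (macrophage-like, 10680 genes) of genes changed 2-fold, and between 86% (CD4 conventional T-like, 9645 genes) and 99% (monocyte-like, 7994 genes) of those changed 4-fold. Ratios and shares were tested with exact permutation or sign-flip tests (scipy 1.17.1). Intervals are exact Clopper-Pearson at 95% and, like the limits for a count of 0, cover counting error only.

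The 10 members were all described. Companion genes are up to 3 per list and class, those with the largest change among those past the threshold, and likeness was computed for Itga4, Itgal, Itgb7 and Vcam1 among genes with a mean of at least 20 CPM. The members and lists were chosen with earlier results of these data known. Whether the replicate numbers of the labels pair the libraries could not be told. Deviations of same-numbered libraries correlated at 0.580, -0.385 and 0.321 in NK-like cells, but BrM 2 and MFP 2 differ in library kind. In the same cells BrM and MFP libraries of like kind but another number correlated at 0.528 and 0.448. All BrM and MFP pairs of unlike kind correlated negatively, so this check cannot separate pairing from kind. Promoter sequences came from the RefSeq table given for this work, which held 6 of the 10 members. The alternatives tried were DESeq2, no count filter, a replicate block, a term for or a split by library kind, no doublet removal, a stricter gate, single chains in the ratio, another thinning depth and leaving out each library.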

Additional observations from a re-analysis of the deposited data

Results flagged for a closer look

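Cd44 and Itgax differed in opposite directions between the sites in gamma-delta T-like and monocyte-like cells, with every library of one site on the same side of every library of the other in each class. For Cd44 the log2 fold change of BrM over MFP was 0.77 in gamma-delta T-like and -1.20 in monocyte-like cells, a difference of 1.97. For Itgax it was -1.56 in gamma-delta T-like and 0.85 in monocyte-like cells, a difference of -2.41. The difference between the classes was not tested in either case, and of the 4 effects only that of Cd44 in monocyte-like cells passed the adjustment. Itgax in gamma-delta T-like cells rests on low levels, 9.79 CPM in BrM and 25.7 CPM in MFP.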

How the results depend on the processing

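Of the 3 calls between the sites, Cd44 in monocyte-like cells held in 14 of 14 alternatives, Itga4 in Treg-like cells in 10 of 14 and Itgam in monocyte-like cells in 9 of 14. The members called over the 8 classes, 3 in all, became 8 without the count filter, 6 with the term for library kind, 13 within the libraries of lower and 13 within those of higher UMI total, and between 1 and 11 when 1 library was left out, 11 without BrM 1. In fits within a kind a site has 1 library, assumed to vary like the other libraries. No share of all genes called is given here for these fits, so the counts show only how the calls depend on the setting. By class, the count moved in CD4 conventional T-like cells to 1 with DESeq2, 1 without the filter and 3 within lower totals; in NK-like cells to 5 within lower totals; in CD8 T-like cells to 1 within higher totals; in Treg-like cells to 0 with the replicate block and 2 within higher totals; in gamma-delta T-like cells to 3 without the filter, 3 with the term for kind, 3 within lower and 1 within higher totals; in monocyte-like cells to 1 within lower totals, 4 within higher totals and 1 with the stricter gate; and in macrophage-like cells to 5 within higher totals. Leaving out 1 library gave 0 to 1 in B-like and NK-like cells, 0 to 3 in CD4 conventional T-like and Treg-like cells and 1 to 3 in monocyte-like cells. The interaction called 5 members without the filter and 0 to 2 with a library left out. The 15 non-overlapping shares became 16 to 37 with a library left out. Between classes the 100 calls became 93 to 97; in cDC2-like cells 3 to 5, in monocyte-like cells 5 to 8 and in plasmacytoid DC-like cells 5 to 9.

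Whether the replicate numbers pair the libraries is not known. With a replicate block in edgeR 2 members were called between the sites in all, and Itga4 in Treg-like cells had an adjusted p of 0.0557. The VLA-4 to LFA-1 differences between BrM and MFP are unchanged by the block through arithmetic alone, so this is no check of them.

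For that ratio, BrM minus MFP on the log2 scale, the alpha chains alone gave -0.33 in NK-like, -0.64 in CD4 conventional T-like, -0.61 in Treg-like, -0.999 in gamma-delta T-like, -0.98 in B-like and 0.56 in macrophage-like cells, and the beta chains alone gave 0.23 in Treg-like, 0.40 in gamma-delta T-like and 1.26 in B-like cells. Within lower totals it was 0.43 in CD4 conventional T-like, -0.42 in Treg-like, 0.50 in monocyte-like, 0.34 in macrophage-like and 0.51 in B-like cells; within higher totals it was 0.22 in Treg-like, 0.17 in gamma-delta T-like, -0.92 in B-like and -0.45 in macrophage-like cells; the stricter gate gave -0.34 in macrophage-like cells. Classes without overlap numbered 2 with alpha chains, 1 with the stricter gate and 0 to 3 with a library left out. The 13 class pairs past the threshold became 0 with alpha chains, 0 with beta chains and 0 with any library left out, where 5 libraries cannot reach it.

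Direction turned in 9 values: Cd44 in NK-like cells within lower totals (0.28), Itgb1 in CD4 conventional T-like cells without BrM 1 (-0.52, in a range of -0.52 to 0.26 with a library left out), Itgam in macrophage-like cells within higher totals (-0.50), Vcam1 in mature DC-like against other classes with the stricter gate (-0.023), the ratio of Treg-like minus gamma-delta T-like cells with alpha chains (0.43), and with beta chains the ratios of NK-like (1.50), CD8 T-like (1.05), CD4 conventional T-like (0.91) and gamma-delta T-like (0.71) minus B-like cells. The cause was not tested.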

Other observations

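Levels were also taken in 7478 of the 10306 cells with a Cd3 UMI that the gates placed in no class, those with at least 2 UMIs of Cd3e, Cd3d and Cd3g and under 30 UMIs of 8 macrophage markers per 10000. Of the 20 levels of 10 members at 2 sites, 17 lay between the lowest and the highest of the 4 T cell classes. The exceptions were Itgam at both sites and Itgax in BrM, which lay above all 4. Itga4 in these cells averaged 133 ± 20.4 CPM in BrM against 168 ± 28.4 CPM in MFP, and Itgb1 averaged 322 ± 109 CPM in BrM against 276 ± 65.9 CPM in MFP (SD, n = 3 each). Itgal averaged 136 ± 4.66 CPM in BrM against 133 ± 4.57 CPM in MFP, and Selplg 426 ± 79.1 and 471 ± 11.1 CPM. Itgam averaged 4.91 ± 1.03 CPM in BrM against 7.87 ± 2.05 CPM in MFP, where the T cell classes had 2.77 to 4.05 CPM in BrM and 3.18 to 4.52 CPM in MFP. Itgax averaged 12.7 CPM in BrM, above 0.870 to 10.2 CPM in the T cell classes. No test was made on these cells, since they mix T cell classes in unknown proportion.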
